A study of Mus musculus with 14 samples.

Results

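Chemokines are small secreted proteins that steer leukocytes through G protein-coupled receptors, and many are made when the kinase IKK2 releases the transcription factor NF-κB. The 10 genes described here encode chemokines that draw monocytes (Ccl2, Ccl7), neutrophils (Cxcl1, Cxcl2), T cells and natural killer cells (Ccl5, Cxcl9, Cxcl10, Cxcl16, Cx3cl1) or CCR6-bearing lymphocytes and dendritic cells (Ccl20). In islets they are known from inflamed β-cells and from macrophages and other leukocytes that sit in or enter the islet. The genes were chosen by name from these families, with earlier results of these data known. Each had 1 transcript cluster on the array, and all 10 were among the 19938 genes tested.

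RNA of isolated pancreatic islets was hybridised to 14 Affymetrix Mouse Gene 1.0 ST arrays, all from untreated mice aged 11 weeks on a mixed C57BL/6 and NMRI (1:1) background. The groups were IKK2-CApdx-1 mice, which were diabetic and are called IKK2-CA here (5 arrays), Pdx-1+/- mice (4 arrays) and control mice (5 arrays). IKK2-CA mice expressed constitutively active IKK2 in β-cells through the driver allele Pdx-1-tTA, and in Pdx-1+/- mice that allele alone leaves 1 working copy of Pdx-1. The genotype of the control mice is not given further. Whether each array is a separate mouse or a pool is not stated, so p-values measure the spread between arrays. Active IKK2 and the diabetes that came with it cannot be told apart. Against control islets, active IKK2 also cannot be told apart from the driver allele and its lost Pdx-1 copy. The mean Pdx1 signal was 6.67 in IKK2-CA, 7.14 in Pdx-1+/- and 8.23 in control islets. Values are log2 signals that compare arrays for the same gene. The islet hormone genes were high on every array, with Ins2 at 12.31 to 12.68, Gcg at 12.88 to 13.36 and Sst at 11.61 to 12.78. A lower signal in whole islets cannot separate fewer cells of a type from less RNA per cell.

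Acinar (digestive enzyme) genes were also high on all 14 arrays, with Cpa1 at 13.61 to 13.71 and Ctrb1 at 13.64 to 13.73. All arrays thus held exocrine RNA, which leaving arrays out does not remove. Of 6 acinar markers measured, 0 passed in any comparison (limma). Beyond this, 3 arrays stood apart by intestinal or adipocyte genes, and these are the arrays said below to carry other tissues. Pdx-1+/- array 4 had a mean of 3.19 log2 above the 14-array mean over 8 intestinal genes, and control array 3 had 1.45, against −0.56 to −0.27 on the other 12 arrays. IKK2-CA array 5 had 2.48 over 7 adipocyte genes, against −0.60 to 0.44 elsewhere. Where leaving these arrays out changed the call of a named chemokine or receptor gene, both values are given.

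The sequence just before the start of several of these genes holds letters that NF-κB is known to bind, and these stretches are shown because NF-κB is the pathway altered in the IKK2-CA mice. They are taken from RefSeq promoters of build GRCm38.p6, which had an entry for 6 of the 10 genes, and run 5′ to 3′ on the gene's strand. Capitals mark matches to the NF-κB (κB) consensus, to a looser form, GGG and CC with any 5 bases between them, or to an element bound by interferon regulatory factors, GAAA and GAAA with any 2 bases between them. Both strands were searched, and every κB match is also a match to the looser form.
Cxcl1, chr5:90891135-90891204, + strand, bases 110 to 41 before the start: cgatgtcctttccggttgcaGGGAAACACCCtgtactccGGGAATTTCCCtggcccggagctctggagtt
Cxcl2, chr5:90903779-90903848, + strand, bases 120 to 51 before the start: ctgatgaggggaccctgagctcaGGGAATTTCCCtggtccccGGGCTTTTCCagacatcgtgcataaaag
Ccl20, chr1:83116656-83116725, + strand, bases 110 to 41 before the start: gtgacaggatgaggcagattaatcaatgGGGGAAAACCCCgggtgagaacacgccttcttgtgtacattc
Cxcl10, chr5:92348970-92349109, - strand, bases 220 to 81 before the start: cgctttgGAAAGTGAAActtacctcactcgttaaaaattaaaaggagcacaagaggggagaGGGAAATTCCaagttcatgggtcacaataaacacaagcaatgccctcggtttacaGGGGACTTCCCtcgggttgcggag
Cxcl9, chr5:92328160-92328229, - strand, bases 150 to 81 before the start: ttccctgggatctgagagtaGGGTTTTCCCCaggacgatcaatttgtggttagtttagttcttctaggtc

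Cxcl1 and Cxcl2, which are neighbours on the chromosome, carry the same 10 letters GGGAATTTCC. The κB consensus was found in the 300-base windows (250 before to 50 after the start) of Cxcl1, Cxcl2, Ccl20 and Cxcl10, that is in 4 of 6 genes, and in 6.55% of all 27025 genes with a window. The looser form was found in 5 of 6 genes and in 53.5% of all these genes. The GAAA pair was found in 1 of 6 genes, Cxcl10, and in 3.99% of all these genes. The window of Cx3cl1 had none of these. These matches describe letters and not bound sites.

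The 10 chemokines fell into sets with different behaviour in IKK2-CA islets. Ccl5, Cxcl16, Cx3cl1, Cxcl9 and Cxcl10 had higher mean signals in IKK2-CA islets than in either other group, by log2 0.51 to 2.12. Ccl2, Ccl7, Cxcl1 and Cxcl2 had nearly equal means in the 3 groups, with IKK2-CA differences between log2 −0.06 and 0.07. In IKK2-CA against Pdx-1+/- islets 1 of 10 rose and 0 fell at an adjusted p under 0.05 over all genes (limma), where 0.0752% of all genes were called, all of them rises. In IKK2-CA against control islets 3 of 10 rose and 0 fell, where 2.25% of all genes were called (0.682% rose and 1.56% fell). Positive differences were found for 8 and 9 of 10, beside 45% and 46.4% of all genes. The median log2 difference of the 10 was 0.39 and 0.50 in these comparisons, which share the IKK2-CA arrays, against −0.01 for all genes in both.

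**Figure D1:**
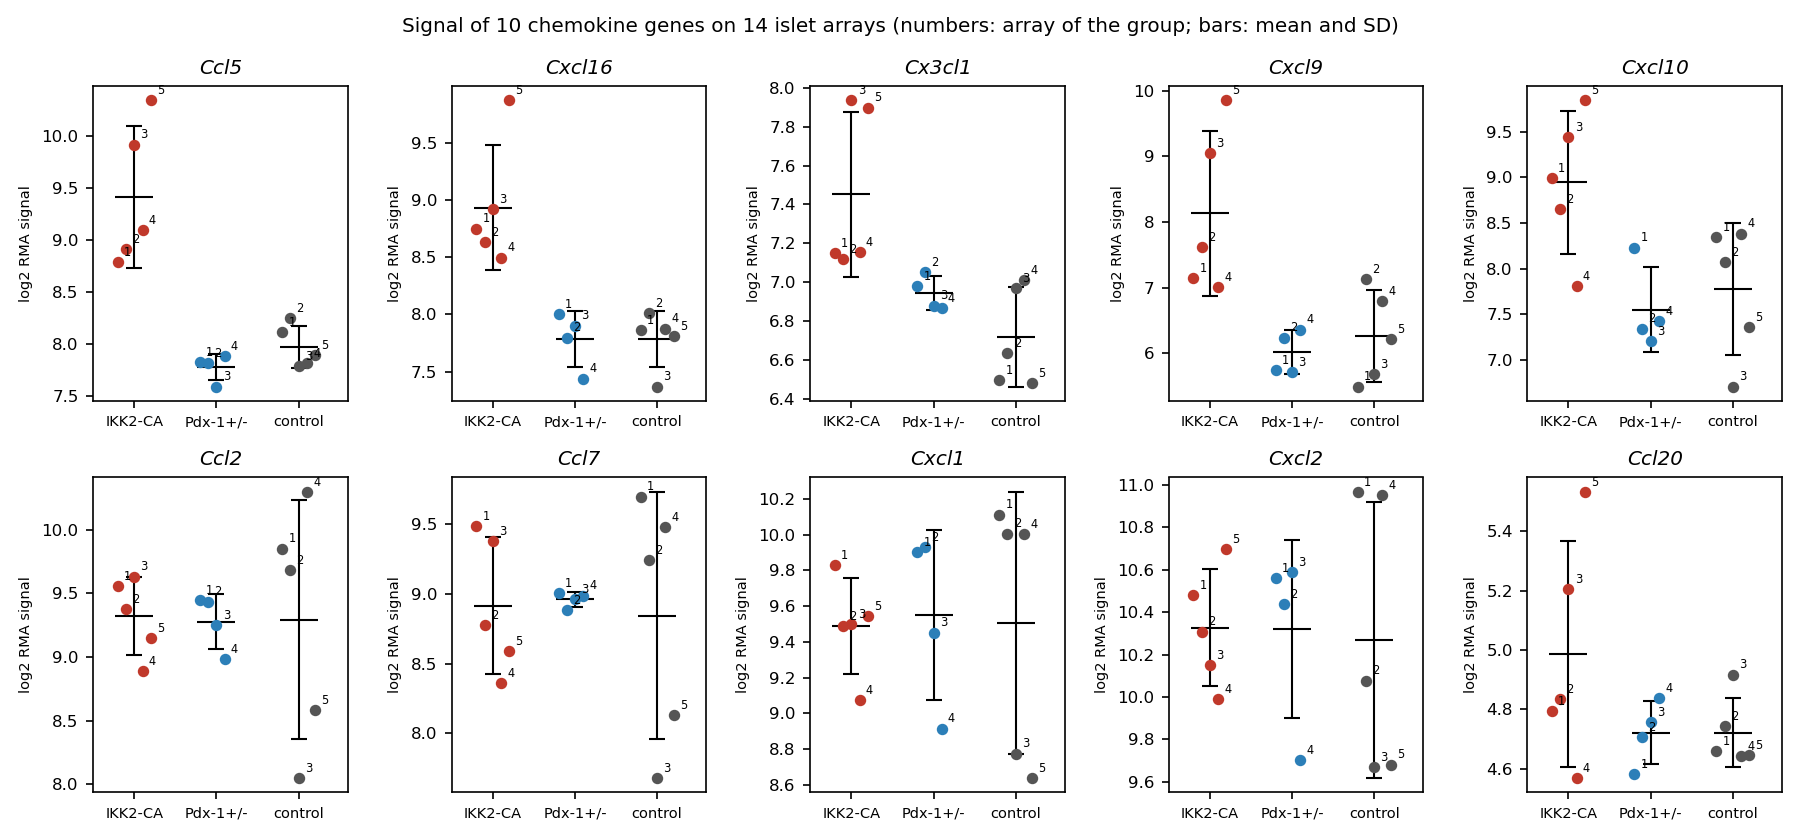
The log2 RMA signal (vertical axis) of each chemokine gene is plotted for every array of the 3 groups, with points numbered by array and bars for the mean and SD. Ccl5 and Cxcl16 on the 5 IKK2-CA arrays sit above all Pdx-1+/- and control arrays, while Ccl2, Ccl7, Cxcl1 and Cxcl2 spread widest among the control arrays.

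Ccl5 (transcript cluster 10389207), or RANTES, attracts T cells, monocytes and natural killer cells. It read 8.78, 8.91, 9.91, 9.09 and 10.34 on IKK2-CA arrays 1 to 5, against 7.82, 7.81, 7.59 and 7.88 on Pdx-1+/- arrays 1 to 4 and 8.11, 8.24, 7.78, 7.81 and 7.89 on control arrays 1 to 5. Each IKK2-CA array lay above all arrays of the other groups, and arrays 3 and 5 lay highest. Ccl5 rose 3.10-fold in IKK2-CA islets against Pdx-1+/- islets (log2 1.63, SE 0.26, limma adjusted p = 0.0262). It rose 2.71-fold against control islets (log2 1.44, SE 0.24, limma adjusted p = 0.00962). The call against control held with each of the 14 arrays left out in turn (highest adjusted p = 0.0380). The call against Pdx-1+/- was lost without IKK2-CA array 3 (limma adjusted p = 0.0817), without Pdx-1+/- array 1 (0.104), 2 (0.112), 3 (0.135) or 4 (0.0803), and without control array 1 (0.0506). It was also lost when these groups were fitted alone (adjusted p = 0.268).

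Cxcl16 (10387890) and Cx3cl1 (10574220) are the chemokines made as membrane-anchored proteins, which adhere CXCR6- and CX3CR1-bearing leukocytes and are released by proteases. Cxcl16 read 8.75, 8.63, 8.92, 8.49 and 9.87 on IKK2-CA arrays 1 to 5, against 7.998, 7.80, 7.90 and 7.44 on the Pdx-1+/- arrays and 7.86, 8.01, 7.37, 7.87 and 7.81 on the control arrays. The IKK2-CA arrays overlapped neither other group, and array 5 stood highest. Cxcl16 rose 2.21-fold against control islets (log2 1.15, SE 0.22, limma adjusted p = 0.0161), a call lost without control array 3 (adjusted p = 0.0560). Against Pdx-1+/- islets it was at log2 1.15 (SE 0.23, limma adjusted p = 0.0949). It passed there without Pdx-1+/- array 4 plus IKK2-CA array 5 (log2 0.80, adjusted p = 0.0338) and without IKK2-CA array 5 (log2 0.91, adjusted p = 0.0152).

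Cx3cl1, or fractalkine, read 7.15, 7.12, 7.93, 7.16 and 7.90 on IKK2-CA arrays, against 6.98, 7.05, 6.88 and 6.87 on Pdx-1+/- arrays and 6.50, 6.64, 6.97, 7.01 and 6.48 on control arrays. IKK2-CA arrays 3 and 5 were high and the other 3 lay just above the highest arrays of the other groups. Cx3cl1 rose 1.66-fold against control islets (log2 0.73, SE 0.17, limma adjusted p = 0.0438). This call was lost without any 1 of IKK2-CA arrays 3 and 5, Pdx-1+/- arrays 1 to 3 or the 5 control arrays (limma adjusted p = 0.0588 to 0.114), and without Pdx-1+/- array 4 plus IKK2-CA array 5 (0.0730), or control array 3 as well (0.107). It was also lost when the IKK2-CA and control arrays were fitted alone (0.0887). Against Pdx-1+/- islets it was at log2 0.51 (SE 0.18, limma adjusted p = 0.544). Cx3cl1 lies between the CCR4 ligand genes Ccl22 and Ccl17 in the order of protein-coding genes on mouse chromosome 8 (RefSeq, GRCm38.p6). In IKK2-CA against Pdx-1+/- and against control islets Ccl17 was at log2 4.62 (SE 0.45) and 4.80 (SE 0.42), and Ccl22 at log2 2.23 (SE 0.29) and 2.24 (SE 0.27).

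Cxcl9 (10531407) and Cxcl10 (10531415) are interferon-induced ligands of CXCR3, the receptor of activated T cells and natural killer cells. Cxcl9 read 7.14, 7.61, 9.05, 7.003 and 9.85 on IKK2-CA arrays, against 5.74, 6.24, 5.71 and 6.36 on Pdx-1+/- arrays and 5.49, 7.13, 5.68, 6.79 and 6.21 on control arrays. The IKK2-CA group cleared every Pdx-1+/- array, and 4 of its 5 arrays cleared every control array. Its mean difference was log2 2.12 against Pdx-1+/- islets (95% interval 1.01 to 3.23, limma adjusted p = 0.235) and log2 1.87 against control islets (0.82 to 2.92, limma adjusted p = 0.0638), with an SD of 1.26 among IKK2-CA arrays (n = 5). Against control it passed without IKK2-CA array 4 (adjusted p = 0.0255) or control array 2 (0.0436).

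Cxcl10 read 8.99, 8.65, 9.44, 7.81 and 9.84 on IKK2-CA arrays, against 8.23, 7.35, 7.20 and 7.43 on Pdx-1+/- arrays and 8.34, 8.07, 6.71, 8.38 and 7.36 on control arrays. IKK2-CA array 4 fell inside the range of both other groups and the other 4 lay above it. The difference was log2 1.39 against Pdx-1+/- islets (95% interval 0.53 to 2.26, limma adjusted p = 0.344) and 1.17 against control islets (0.36 to 1.99, limma adjusted p = 0.131). Without IKK2-CA array 4 it passed against control (log2 1.46, adjusted p = 0.0308). Cxcl11, the remaining CXCR3 ligand, which RefSeq lists as a transcribed pseudogene in this assembly, averaged 5.05 ± 0.56 in IKK2-CA islets (SD, n = 5), 4.30 ± 0.14 in Pdx-1+/- islets (SD, n = 4) and 4.23 ± 0.15 in control islets (SD, n = 5; limma adjusted p = 0.344 and 0.0534 for IKK2-CA against each).

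IKK2-CA arrays without overlap with the other group were found for 4 of the 10 against Pdx-1+/- (Ccl5, Cxcl9, Cxcl16, Cx3cl1) and 3 of the 10 against control (Ccl5, Cxcl16, Cx3cl1), where 1.72% and 1.86% of all genes lay wholly above. IKK2-CA arrays lay wholly below for 0 of 10 in both, beside 0.712% and 2.34% of all genes. At an unadjusted p under 0.05, 5 of 10 were higher and 0 lower in each comparison. In the first, 7.02% of all genes passed that threshold and 4.32% were higher; in the second, 15.7% passed and 6.2% were higher. The order of group means was IKK2-CA, control, Pdx-1+/- for Ccl5, Cxcl9, Cxcl10 and Cxcl16 and IKK2-CA, Pdx-1+/-, control for Cx3cl1. In each order the step between the last pair was within the spread of the arrays, with no member past the threshold in Pdx-1+/- against control islets.

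**Figure D2:**
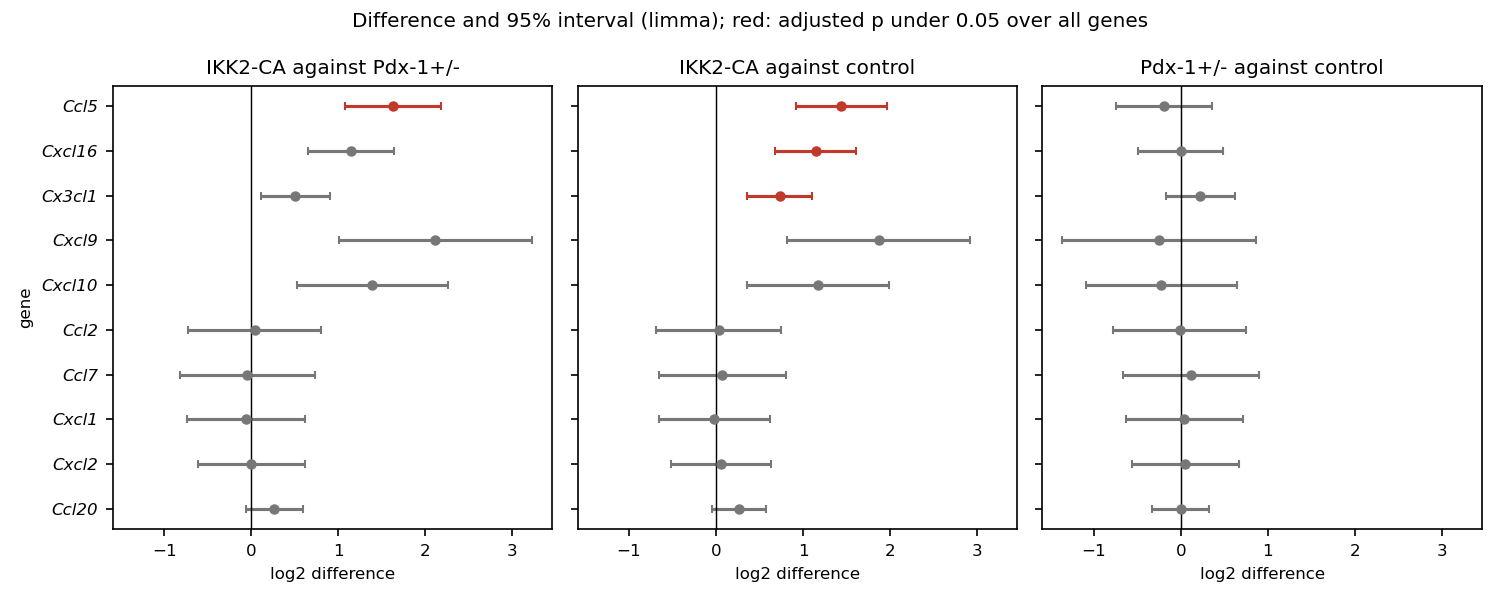
The log2 difference (horizontal axis) of each gene is shown for 3 comparisons as a point with its 95% limma interval, red where the adjusted p over all genes is under 0.05. The upper 5 genes have intervals above 0 in both IKK2-CA comparisons, and the intervals of all 10 cross 0 in Pdx-1+/- against control.

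Ccl2 (10379511), or MCP-1, and Ccl7 (10379518), or MCP-3, are the neighbouring monocyte attractants that bind CCR2. Ccl2 read 9.56, 9.38, 9.63, 8.89 and 9.15 on IKK2-CA arrays, against 9.45, 9.44, 9.25 and 8.99 on Pdx-1+/- arrays and 9.85, 9.68, 8.05, 10.30 and 8.58 on control arrays. The control arrays held both the highest and the lowest values, with arrays 1, 2 and 4 above every IKK2-CA array and arrays 3 and 5 below. The difference between IKK2-CA and control was log2 0.03 (95% interval −0.69 to 0.75, limma adjusted p = 0.984), and against Pdx-1+/- it was 0.04 (−0.72 to 0.81, adjusted p = 0.997). The upper ends of these intervals are 1.68-fold against control and 1.75-fold against Pdx-1+/-.

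Ccl7 read 9.49, 8.77, 9.38, 8.36 and 8.59 on IKK2-CA arrays, against 9.01, 8.89, 8.96 and 8.99 on Pdx-1+/- arrays and 9.70, 9.24, 7.68, 9.48 and 8.13 on control arrays. Control arrays 3 and 5 were again the lowest of all, and control array 1 the highest. Its SD was 0.49 in IKK2-CA islets (n = 5), 0.054 in Pdx-1+/- islets (n = 4) and 0.89 in control islets (n = 5). The differences were log2 −0.045 against Pdx-1+/- (95% interval −0.82 to 0.73) and 0.07 against control (−0.66 to 0.80), with limma adjusted p of 0.997 and 0.959. The 9 myeloid markers measured beside them (Cd68, Adgre1, Itgam, Csf1r, Cd14, Lyz2, Fcgr1, Mrc1 and Aif1) had 0 that rose or fell in any comparison (limma; at an unadjusted p under 0.05, 2 were higher and 1 lower against Pdx-1+/- and 2 higher against control). Their IKK2-CA differences against Pdx-1+/- were split, 5 positive and 4 negative, from log2 −0.51 (Mrc1) to 0.60 (Aif1). Against control 7 were positive and 2 negative, from log2 −0.12 to 0.58. Their mean lay at −0.37 to 0.66 log2 in IKK2-CA, −0.19 to 0.14 in Pdx-1+/- and −0.42 to 0.12 in control islets, as deviation from the 14-array mean.

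Cxcl1 (10523151) and Cxcl2 (10523156) call in neutrophils through CXCR2. Cxcl1 read 9.83, 9.49, 9.499, 9.07 and 9.55 on IKK2-CA arrays, against 9.90, 9.93, 9.45 and 8.91 on Pdx-1+/- arrays and 10.11, 10.01, 8.78, 10.003 and 8.64 on control arrays. Every IKK2-CA array lay inside the range of each other group. Its difference was log2 −0.06 against Pdx-1+/- islets (95% interval −0.74 to 0.61, limma adjusted p = 0.995) and −0.02 against control islets (−0.66 to 0.62, limma adjusted p = 0.988).

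Cxcl2 read 10.48, 10.31, 10.15, 9.99 and 10.70 on IKK2-CA arrays, against 10.56, 10.44, 10.59 and 9.70 on Pdx-1+/- arrays and 10.97, 10.08, 9.67, 10.95 and 9.68 on control arrays. Control arrays 3 and 5, with Pdx-1+/- array 4, were the lowest of all. The difference was log2 0.0043 against Pdx-1+/- (95% interval −0.61 to 0.62, limma adjusted p = 0.999) and 0.06 against control (−0.52 to 0.63, limma adjusted p = 0.960). Of 8 neutrophil markers 0 passed in any comparison (limma; 1 at an unadjusted p under 0.05, against control), and their mean lay at −0.23 to 0.08 in IKK2-CA, −0.03 to 0.18 in Pdx-1+/- and −0.15 to 0.06 in control islets. An array gives every gene a signal, so no marker reads 0.

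Ccl20 (10347888), the ligand of CCR6, was the 1 member among the 30% of genes with the lowest mean, so a filter on low values kept 9 of 10. It read 4.79, 4.83, 5.21, 4.57 and 5.53 on IKK2-CA arrays, against 4.58, 4.71, 4.76 and 4.84 on Pdx-1+/- arrays and 4.66, 4.74, 4.92, 4.64 and 4.65 on control arrays. IKK2-CA arrays 3 and 5 were above all other arrays, and array 4 was the lowest of all. The difference was log2 0.27 against each other group (95% interval −0.06 to 0.59 against Pdx-1+/- and −0.04 to 0.58 against control, limma adjusted p = 0.8288 and 0.417).

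In Pdx-1+/- against control islets, the comparison that carries the driver allele alone, 0 of 10 chemokines passed, where 0.0953% of all genes were called (limma). At an unadjusted p under 0.05 the count was also 0 of 10, beside 4.71% of all genes (1.23% higher). Pdx-1+/- arrays lay wholly above control arrays for 0 of 10 and wholly below for 0 of 10, beside 0.481% and 1.4% of all genes. Positive differences were found for 4 of 10, beside 48.2% of all genes. The 10 differences ran between log2 −0.25 (Cxcl9) and 0.22 (Cx3cl1), with a median of −0.0016 beside −0.0049 for all genes. The 95% intervals were narrowest for Ccl20 (−0.33 to 0.33) and widest for Cxcl9 (−1.36 to 0.86).

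Within groups the chemokine genes varied together in sets. After each group's mean was removed, Ccl2, Ccl7, Cxcl1 and Cxcl2 correlated with each other across the 14 arrays (Pearson r 0.66 to 0.92 over 6 pairs). Ccl5, Cxcl9, Cxcl10, Cxcl16 and Cx3cl1 did so at 0.42 to 0.84 over 10 pairs. Between these sets r was −0.03 to 0.53 over the 16 pairs without Cxcl10. Cxcl10 was at 0.67 to 0.72 with the 4 genes of the first set and at 0.42 to 0.75 with its own, so it shared the array pattern of both. Ccl20 stood with Ccl5 (0.79), Cxcl9 (0.77) and Cx3cl1 (0.76) and at −0.16 (Ccl2) to 0.0046 (Cxcl2) with the first set. The values of an array come from 1 RNA sample and 1 normalization, the sets were formed after the values were seen, and the correlations are descriptions with no test.

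**Figure D3:**
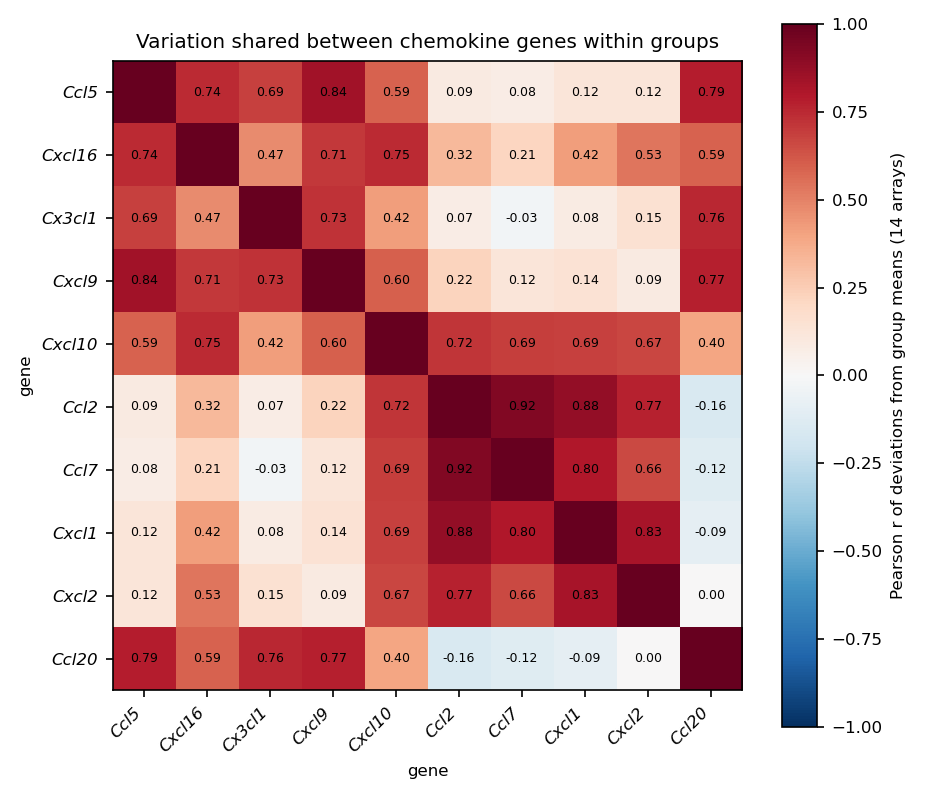
Each cell gives Pearson's r between 2 chemokine genes over the deviations of 14 arrays from their group means, with colour from −1 to 1. Ccl2, Ccl7, Cxcl1 and Cxcl2 form a block at 0.66 to 0.92, and Cxcl10 has r from 0.40 to 0.75 with the other 9 genes.

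Each member's 3 nearest genes by Pearson r over the 14 arrays are given next, as a description of likeness over these arrays. Ccl2 was nearest to Ccl7 (r = 0.92), Tubb6 (0.89) and Cxcl1 (0.88), and Ccl7 to Ccl2, the interferon gene Ifnb1 (0.84) and Ifrd1 (0.83). Cxcl1 was nearest to Ehd1 (0.95), the stress-induced Ier3 (0.93) and the NF-κB cofactor gene Nfkbiz (0.92). Cxcl2 was nearest to Ccnl1 (0.93), Tiparp (0.91) and the transcription factor gene Maff (0.90).

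Cxcl9 was nearest to the immunoproteasome subunit gene Psmb8 (r = 0.98), the peptide transporter gene Tap1 (0.97) and Tgfb1 (0.96). Cxcl10 was nearest to the cytokine gene Tnf (0.97) and to the endothelial adhesion molecule genes Sele (0.94) and Icam1 (0.94). Ccl5 was nearest to Fscn1, an actin bundler of mature dendritic cells that is also on the dendritic marker list (0.97), Csf2rb2 (0.97) and Rasgrp1 (0.97). Cxcl16 was nearest to Wdfy4, which dendritic cells use in cross-presentation (0.99), Myo1g (0.98) and the fungal lectin receptor gene Clec7a (0.98). Cx3cl1 was nearest to Nkd2 (0.95), Ubash3b (0.93) and the vascular addressin gene Madcam1 (0.92), and Ccl20 to Fyb2 (0.95), Oas3 (0.94) and Glycam1 (0.94). Within groups r of these pairs stayed between 0.85 and 0.97.

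Of the leukocyte marker lists, the dendritic list had members that passed. Of 10 dendritic cell markers 5 rose in IKK2-CA against Pdx-1+/- islets and 8 against control islets (limma, 0 fell; all genes called 0.0752% and 2.25%), Itgax, Xcr1, Itgae, Fscn1 and Ccr7 in both. Against Pdx-1+/- the count was 0 without IKK2-CA array 3 or any 1 of the 4 Pdx-1+/- arrays, 0 with only these groups fitted, 3 without control array 1 and 7 without both Pdx-1+/- array 4 and IKK2-CA array 5. Against control it was 7 or 8 with each array left out. The mean of the 10 dendritic markers, as log2 deviation from the 14-array mean, was 0.53 to 1.70 in IKK2-CA islets. It was −0.62 to −0.33 in Pdx-1+/- and −0.65 to −0.29 in control islets, without overlap with IKK2-CA. Of 9 T and natural killer cell markers 0 passed in any comparison (limma; 4 higher at an unadjusted p under 0.05 in each IKK2-CA comparison). Their mean was −0.34 to 0.99 in IKK2-CA, −0.43 to 0.03 in Pdx-1+/- and −0.30 to −0.04 in control islets. It was highest on IKK2-CA arrays 5 (0.99) and 3 (0.78), the arrays with the highest Ccl5, Cxcl9, Cxcl10 and Cx3cl1, and lowest of the 5 on array 4 (−0.34). The part of these cells in the chemokine signals was not tested.

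Of 9 β-cell markers measured, 6 fell and 0 rose in IKK2-CA against control islets (Pdx1, Mafa, Slc2a2, Ucn3, G6pc2 and Slc30a8, limma), where 1.56% of all genes fell. All 9 differences were negative and their median was log2 −1.22, beside −0.01 for all genes. The count of falls was 3 without control array 3 and 3 without the 3 arrays that carried other tissues. Against Pdx-1+/- islets 0 of 9 passed (limma; 1 lower at an unadjusted p under 0.05), with a median of log2 −0.37. In Pdx-1+/- against control islets, with the driver allele alone, 0 of 9 passed but all 9 differences were negative, with a median of log2 −0.79. There 7 were lower at an unadjusted p under 0.05 (limma; 4.71% of all genes passed). Pdx-1+/- arrays lay wholly below control arrays for 4 of 9, beside 1.4% of all genes. The mean of the list, as deviation from the 14-array mean, was −1.07 to 0.10 in IKK2-CA, −0.42 to 0.0012 in Pdx-1+/- and 0.16 to 0.95 in control islets. Within the IKK2-CA group it was lowest on arrays 5 (−1.07) and 3 (−0.93), where Ccl5, Cxcl9, Cxcl10 and Cx3cl1 were highest, and highest on array 4 (0.10), where Cxcl9, Cxcl10 and Cxcl16 were lowest. The part of the β-cell share in the chemokine signals was not tested.

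**Figure D4:**
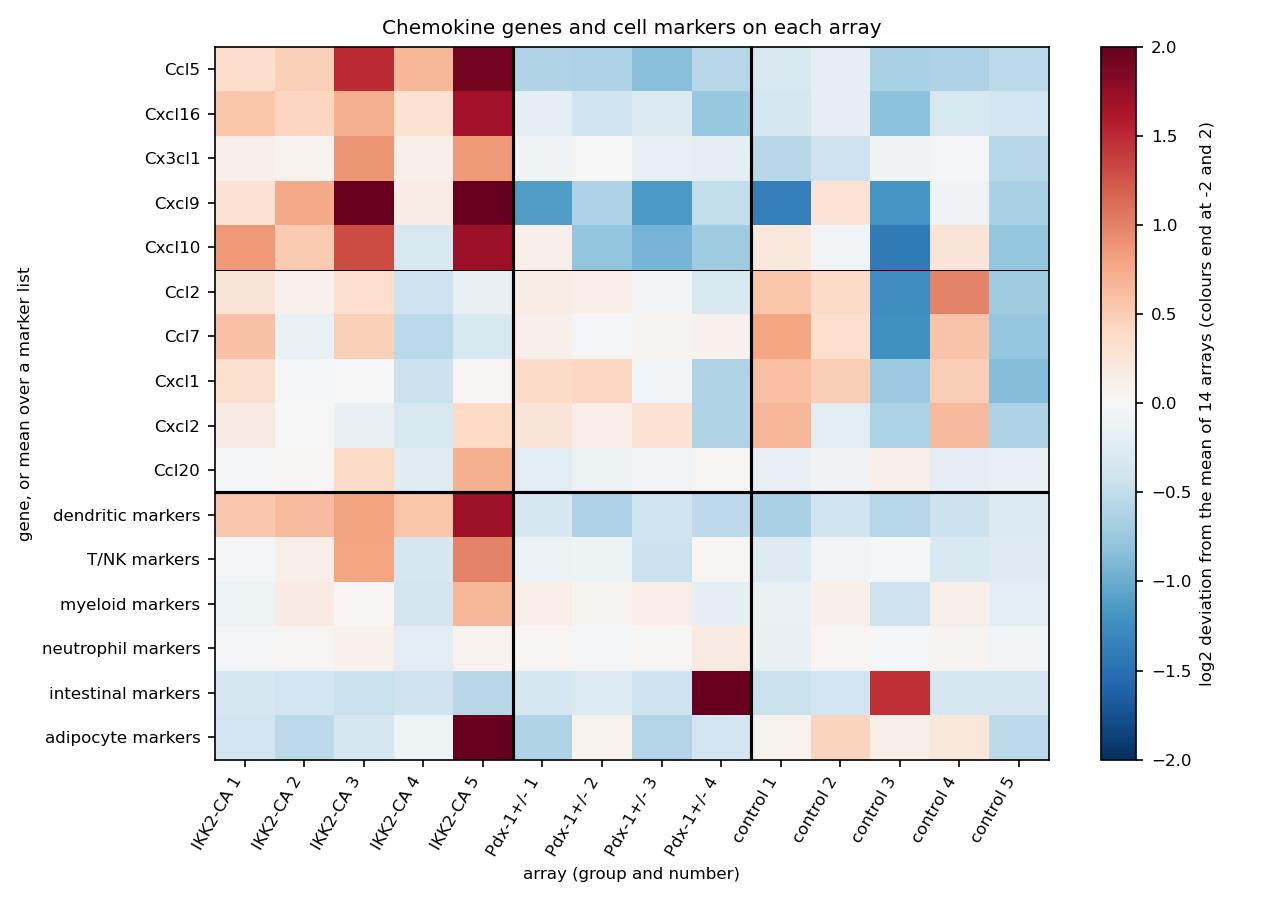
Colours give the log2 deviation from the mean of 14 arrays for the 10 chemokine genes and for the mean of 6 marker lists (rows) on each array (columns), ending at −2 and 2. Ccl5, Cxcl16, Cxcl9 and the dendritic markers are raised on all 5 IKK2-CA arrays, and control arrays 3 and 5 are low for Ccl2, Ccl7, Cxcl1 and Cxcl2.

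Control array 3 carried intestinal genes (mean 1.45) and control array 5 did not (−0.34), while both were low for Ccl2, Ccl7, Cxcl1 and Cxcl2. With the 3 arrays that carried other tissues left out, a choice made after seeing the data, the IKK2-CA differences against control were log2 −0.24 for Ccl2 and −0.14 for Ccl7, both opposite in sign to the fit of all arrays and neither called. On the same 11 arrays Ccl5 (log2 1.16, limma adjusted p = 0.0172) and Cxcl16 (0.81, adjusted p = 0.00188) still passed against control, and both passed against Pdx-1+/- (adjusted p = 0.0157 and 0.00590).

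Among the receptors of these chemokines, Ccr2 and, at a low signal, Cxcr6 rose in IKK2-CA against control islets. Of 10 receptor genes measured, 2 rose and 0 fell against control (limma), where 0.682% of all genes rose and 1.56% fell. At an unadjusted p under 0.05, 5 were higher there, beside 6.2% of all genes. Against Pdx-1+/- 0 of the 10 passed (limma; 0.0752% of all genes called), and 2 were higher at an unadjusted p under 0.05 (4.32% of all genes). In Pdx-1+/- against control 0 of the 10 passed (0.0953% of all genes called), and 1 was higher at an unadjusted p under 0.05 (1.23% of all genes). Their median log2 difference was 0.32 against Pdx-1+/- and 0.41 against control, beside −0.01 for all genes. Ccr2, the receptor of Ccl2 and Ccl7, read 6.39, 7.31, 6.85, 6.41 and 8.88 on IKK2-CA arrays, against 5.13 to 5.51 on Pdx-1+/- arrays and 5.04 to 5.84 on control arrays. The IKK2-CA arrays overlapped neither group, and array 5 stood furthest away.

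Ccr2 was at log2 1.71 against control (SE 0.36, limma adjusted p = 0.0251) and 1.78 against Pdx-1+/- (SE 0.38, limma adjusted p = 0.130). It was lost against control without IKK2-CA array 2 (adjusted p = 0.0575) or 3 (0.0511) or control array 1 (0.0665), 3 (0.0816) or 4 (0.0631), and when IKK2-CA and control arrays were fitted alone (0.0633). It passed against Pdx-1+/- without IKK2-CA array 5 (log2 1.35, adjusted p = 0.00673), without Pdx-1+/- array 4 as well (log2 1.26, 0.0234), and without the 3 arrays that carried other tissues (0.0367). Cxcr6, the receptor of Cxcl16, read 5.24, 4.75, 5.06, 4.55 and 5.41 on IKK2-CA arrays, against 4.68 to 4.86 on Pdx-1+/- arrays and 4.35 to 4.51 on control arrays. All Pdx-1+/- arrays lay above every control array (log2 0.32 in Pdx-1+/- against control), as for 1 of 10 receptors and 0.481% of all genes. Part of the Cxcr6 difference from control was thus present with the driver allele alone, and IKK2-CA array 4 lay below every Pdx-1+/- array. In IKK2-CA islets Cxcr6 was at log2 0.57 against control (SE 0.13, limma adjusted p = 0.0358) and 0.26 against Pdx-1+/- (SE 0.14, limma adjusted p = 0.784). Its call against control was lost without any 1 of 11 arrays (IKK2-CA 1, 3 and 5, Pdx-1+/- 1 to 3 and the 5 controls, highest adjusted p = 0.0899) without Pdx-1+/- array 4 plus IKK2-CA array 5 (0.0528), without the 3 arrays that carried other tissues (0.105), and with only the IKK2-CA and control arrays (0.0757).

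The receptors of the other ligands were not called. Cxcr3, which binds Cxcl9 and Cxcl10, was at log2 0.37 against control (SE 0.15, limma adjusted p = 0.239). Cx3cr1, the fractalkine receptor, was at log2 0.44 (SE 0.26, adjusted p = 0.469) and Cxcr2, which binds Cxcl1 and Cxcl2, at 0.44 (SE 0.20, adjusted p = 0.293). Ccr1, a receptor of Ccl5 and Ccl7, was at log2 0.88 against Pdx-1+/- (SE 0.29, limma adjusted p = 0.455), and Ccr6, the receptor of Ccl20, at 0.24 (SE 0.15, adjusted p = 0.860).

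**Figure D5:**
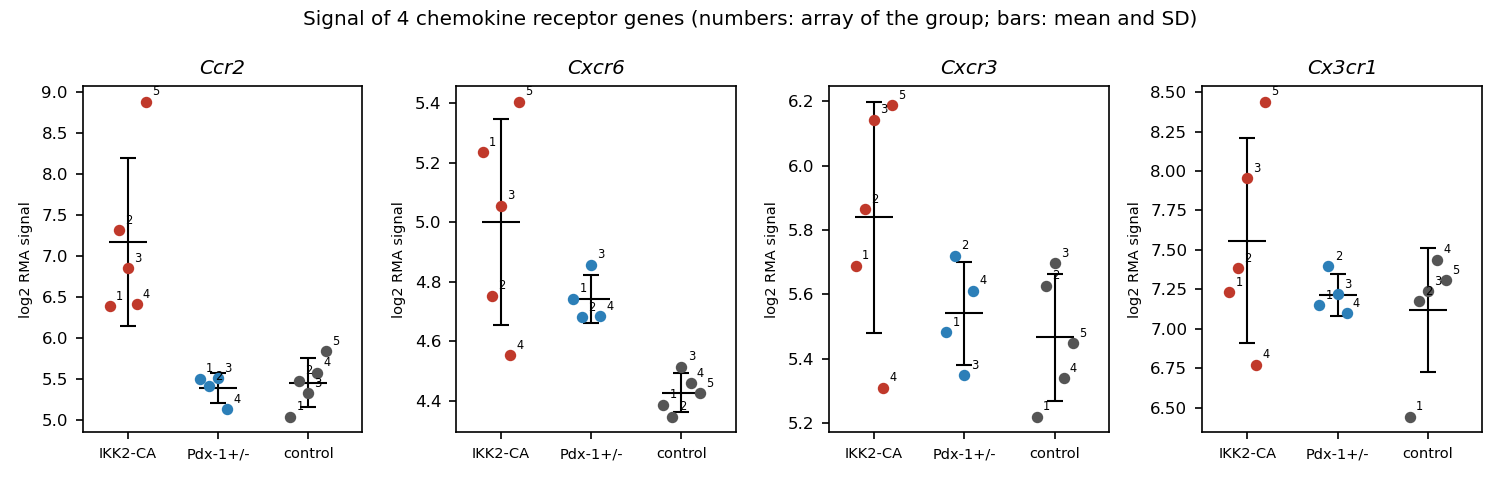
The log2 RMA signal (vertical axis) of 4 receptor genes is plotted for every array of the 3 groups, numbered by array, with bars for the mean and SD. The 5 IKK2-CA arrays lie at 6.39 or more for Ccr2, above every other array, and the Cxcr6 values of Pdx-1+/- islets lie between the control arrays and the highest IKK2-CA arrays.

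Of 27 other chemokine ligands listed 25 were measured. Ccl17 and Ccl22 rose against Pdx-1+/- (limma, 2 of 25, 0 fell), where 0.0752% of all genes were called. Ccl17, Ccl22 and Ccl19 rose against control (limma, 3 of 25, 0 fell), where 2.25% of all genes were called. The medians of the 25 were log2 0.08 and 0.13, beside −0.01 for all genes in both. At an unadjusted p under 0.05, 5 were higher and 3 lower against Pdx-1+/-, where 7.02% of all genes passed. Against control 6 were higher and 0 lower, where 15.7% passed. The call of Ccl22 against Pdx-1+/- (adjusted p = 0.0128) was lost without Pdx-1+/- array 1 (0.05005), 2 (0.0691) or 3 (0.0882) and with only these groups fitted (0.162). Ccl19, the CCR7 ligand that guides mature dendritic cells, was at log2 1.49 against control (SE 0.24, limma adjusted p = 0.00715) and 1.35 against Pdx-1+/- (SE 0.25, limma adjusted p = 0.0707). It passed against Pdx-1+/- without IKK2-CA array 2 (log2 1.52, adjusted p = 0.0310) or IKK2-CA array 5 (log2 1.14, adjusted p = 0.0302). Ccl3 and Ccl4, chemokines made by macrophages, were at log2 −0.03 (SE 0.19, limma adjusted p = 0.966) and 0.19 (SE 0.25, adjusted p = 0.808) against control.

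Of 16 NF-κB and interferon pathway genes listed 13 were measured. All 13 had positive differences in IKK2-CA against Pdx-1+/- islets (median log2 0.29, 0 called, limma; 6 at an unadjusted p under 0.05), where 45% of all genes were positive. The mean of the list was lowest on Pdx-1+/- array 4 (−0.43) and highest on IKK2-CA array 5 (0.65), both among the arrays that carried other tissues. On Pdx-1+/- array 4 Irf1 read 7.92 and Nfkbia 9.89, against 9.21 to 9.80 and 10.78 to 11.32 on the other Pdx-1+/- arrays. Their IKK2-CA means were 9.38 and 10.96, so these positive differences depend on that array. Against control 10 of 13 were positive (median log2 0.24; all genes 46.4%). The 3 negative genes were Ikbkg (mean 7.21 in IKK2-CA and 7.24 in control islets), Irf1 (9.38 and 9.45) and Nfkbia (10.960 and 10.963). Ifngr2, a subunit of the interferon-γ receptor, rose against control (log2 0.62, SE 0.13, limma adjusted p = 0.0219). Its call was lost without IKK2-CA array 3 or control array 3, 4 or 5 (adjusted p = 0.0548 to 0.0783) and without the 3 arrays that carried other tissues (0.0549), and with only the IKK2-CA and control arrays (0.0516).

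Il1b, which encodes a cytokine that induces chemokines in β-cells, was at log2 0.93 against Pdx-1+/- (SE 0.27, limma adjusted p = 0.344) and 1.01 against control (SE 0.26, adjusted p = 0.0570). Nfkb2, itself an NF-κB target, was at 0.70 (SE 0.19, adjusted p = 0.312) and 0.68 (SE 0.18, adjusted p = 0.0634) in the same comparisons. Tnf, the gene nearest to Cxcl10, was at 0.63 (SE 0.23, adjusted p = 0.544) and 0.61 (SE 0.22, adjusted p = 0.167). Ifng, the inducer of Cxcl9, was at 0.46 (SE 0.23, adjusted p = 0.758) and 0.24 (SE 0.22, adjusted p = 0.690).

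The proteases that release or trim these chemokines were not called, apart from Mmp12. Of 7 measured, Mmp12, the macrophage elastase, was the 1 that passed against Pdx-1+/- (log2 2.30, SE 0.39, limma adjusted p = 0.0424) and against control (2.19, SE 0.37, adjusted p = 0.00886), with 0 falls. The call against Pdx-1+/- was lost without any 1 of 12 arrays (all except IKK2-CA arrays 3 and 5, adjusted p = 0.0542 to 0.207), with a trended robust variance (0.0530) and with only these groups fitted (0.404). Ctss, a lysosomal protease of antigen-presenting cells, was at log2 1.08 (limma adjusted p = 0.312) and 1.04 (adjusted p = 0.0650) against Pdx-1+/- and against control, and Mmp9 at −0.65 against Pdx-1+/- (adjusted p = 0.564). Adam10, which sheds Cxcl16 and Cx3cl1, was at log2 0.18 (SE 0.11, limma adjusted p = 0.835) and 0.23 (SE 0.10, adjusted p = 0.281), and Adam17 at 0.23 (SE 0.15, adjusted p = 0.874) and 0.18 (SE 0.14, adjusted p = 0.621), against Pdx-1+/- and against control.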

How the data were processed

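The authors deposited 1 log2 signal for each transcript cluster and array, made by RMA (robust multichip averaging) with Affymetrix's Expression Console, per the series' design text and the submitters' processing notes. The log base is read from the range of values, and no software version was found in the labels or headers. Of 35556 clusters, 21789 had 1 gene symbol in the platform's annotation, and the brightest cluster by mean over all arrays stood for its gene, leaving 19938 genes. Array medians lay between 6.45 and 6.55. The number of arrays limits the precision.

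Genes were tested with limma 3.58.1 (lmFit, eBayes; R 4.3.3) with group means for all 14 arrays fitted together, Benjamini-Hochberg adjustment over all genes, a threshold of 0.05 and moderated standard errors. The method was run on simulated normal values drawn independently for each gene. These lack the variation that genes of an array share here, so that run does not give the error rate in these data. Same-number arrays did not deviate together (r −0.39 to 0.36), so no pairing was used. The 10 members and all gene lists were chosen with earlier results of these data known. From the receptor, other ligand, pathway and protease lists the text names genes past the threshold and the 3 with the largest IKK2-CA against Pdx-1+/- difference. For each member it names the 3 genes with the highest r over 14 arrays. Cxcl11, Ccl3, Ccl4, Cxcr3, Cx3cr1, Ifng, Ccr6, Adam10 and Adam17 were named for their roles after values were seen. Ikbkg, Irf1, Nfkbia, Cpa1, Ctrb1, Zbtb46 and Batf3 were also named after values were seen. Alternatives were 2 normalizations, another variance model, fits of only the compared groups, a filter on dim genes, mean clusters, a replicate block and arrays left out. Another motif that was searched for is not reported here. Counts of dendritic and β-cell markers under the alternatives were added after seeing the data.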

Additional observations from a re-analysis of the deposited data

Results flagged for a closer look

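No chemokine gene had an array set apart from its group by Dixon's test at the 5% level (10 genes in 3 groups). Of 84 groups tested over genes and marker lists, 5 were set apart, and chance gives about 4.2. All 5 were marker lists, as mean log2 deviation from the 14-array mean. On IKK2-CA array 5 the dendritic cell markers had 1.70, with 0.80 on the nearest array of the group. On the same array the adipocyte markers had 2.48, with −0.09 on the nearest. On Pdx-1+/- array 4 the intestinal markers had 3.19, with −0.27 on the nearest. The same array had −0.42 for the β-cell markers, with −0.06 on the nearest. On control array 3 the intestinal markers had 1.45, with −0.33 on the nearest. IKK2-CA array 5 had the highest Ccl5, Cxcl9, Cxcl10, Cxcl16 and Ccl20 of all arrays, and the part of the adipocyte and dendritic cell genes in these values was not tested.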

How the results depend on the processing

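Ccl5, Cxcl9, Cxcl10, Cxcl16 and Cx3cl1 kept a positive difference in both IKK2-CA comparisons under every alternative run, and the alternatives that changed a chemokine's call stand beside it in the report, apart from the replicate block. Of 687 chemokine differences recomputed, 581 kept their direction and side of the threshold and 77 changed sign. Those 77 had differences of at most log2 0.12 with all arrays, none was called (lowest adjusted p = 0.725), and the cause was not tested.

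Counts of chemokines called in IKK2-CA against Pdx-1+/- (1 with all arrays) were 0 with the replicate block, 0 with only these groups fitted, 2 without Pdx-1+/- array 4 plus IKK2-CA array 5, 2 also without control array 3, and 0 to 2 with each array left out. Against control (3) leaving out each array gave 1 (without control array 3) to 5 (without IKK2-CA array 4). In Pdx-1+/- against control it was 0 throughout. With the replicate block, which the pairing check did not bear out, Ccl5 was at log2 1.53 (limma adjusted p = 0.176) against Pdx-1+/- and Cx3cl1 at 0.73 (adjusted p = 0.0862) against control. Receptors called against Pdx-1+/- (0) were 1 without those 2 arrays, 1 without the 3, and 0 to 1 with each array left out. Against control (2) they were 1 without the dimmest genes, 1 with the block, 1 without those 2 arrays, 1 without the 3, 0 with only these groups, and 0 to 3 with each left out. All genes called against Pdx-1+/- (15) were 9 with the block, 1 with only these groups, 52 without those 2 arrays, 48 without the 3, and 2 to 66 with each left out. Against control (448) they were 197, 241 and 186 with the block, with only these groups and without the 3 arrays, and 120 to 980 with each left out. In Pdx-1+/- against control (19) they were 9 with the block, 11 without the 3 arrays and 9 to 48 with each left out.

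Signs changed as follows, as log2 differences. In IKK2-CA against Pdx-1+/-, Ccl2 was −0.012, Ccl7 0.047 and Cxcl2 −0.30 without the 2 arrays and without the 3. Ccl7 was 0.086 and Cxcl1 0.039 with the block, and Cxcl2 −0.0054 with median centring and −0.033 with quantile normalization. In IKK2-CA against control, Ccl2 was −0.24, Ccl7 −0.14 and Cxcl2 −0.19 without the 3 arrays, and Cxcl2 −0.036 without the 2. In Pdx-1+/- against control, Ccl2 was 0.010, Ccl20 0.023 and Cxcl16 0.020 with median centring, and Ccl2 0.031 and Cxcl16 0.048 with quantile normalization. Without the 2 arrays Ccl2 was 0.085 and Cxcl16 0.11 there, with the block Ccl7 −0.014, Ccl20 0.059, Cxcl1 −0.059 and Cxcl16 0.12, and without the 3 arrays Ccl7 −0.18, Ccl20 0.0097 and Cxcl16 0.0079. With each array left out the ranges that crossed 0 were, against Pdx-1+/-, −0.055 to 0.15 for Ccl2, −0.19 to 0.095 for Ccl7, −0.27 to 0.065 for Cxcl1 and −0.20 to 0.093 for Cxcl2. For IKK2-CA against control they were −0.28 to 0.28 for Ccl2, −0.22 to 0.29 for Ccl7, −0.24 to 0.13 for Cxcl1 and −0.094 to 0.23 for Cxcl2. For Pdx-1+/- against control they were −0.32 to 0.24 for Ccl2, −0.039 to 0.049 for Ccl20, −0.17 to 0.33 for Ccl7, −0.17 to 0.25 for Cxcl1, −0.11 to 0.11 for Cxcl16 and −0.098 to 0.26 for Cxcl2. Ccl20 has no value without the dimmest genes, which leaves it out. The fit without 3 arrays was chosen after seeing the data.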
